A study of Mus musculus with 16 samples.

Results

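The 8 genes Emx1, Tbr1, Neurod6, Fezf2, Bcl11b, Cux1, Cux2 and Rorb encode transcription factors of cortical projection neurons, the excitatory neurons that send axons out of their own patch of cortex. They were found by name among the 37583 genes of the deposited RNA-seq tables, 27196 of them with a count in at least 1 library. These names led to 9 entries, because Cux2 is listed again as a pseudogene entry (ENSMUSG00000072641) that had 0 counts in all 16 libraries and is not described further. RNA was measured in cortex and cerebellum of 8 C57BL/6J mice, 4 wild-type and 4 with the A391T variant of Slc39a8 (also given as A393T in the labels), a gene for a metal ion transporter. Each mouse gave 1 cortex and 1 cerebellum library, so each of the 4 groups held 4 libraries, named here as in the labels by region and mouse (CTX447 and CBLM447 for the same wild-type mouse). The study describes its wild-type mice as 12-week-old male littermates that were not perfused. The tissue was frontal cortex and cerebellum separated by blunt dissection, with no sorting of cells. The labels do not give the age, sex or zygosity of the A391T mice, and a count per gene does not carry the base change, so the genotype labels could not be checked from these values.

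In the developing cortex, progenitors first acquire a pallial identity, for which Emx1 is a classical marker, and their daughter neurons then take a layer and a target under factors that are kept into adult life. Tbr1 is the T-box factor best known for corticothalamic neurons of layer 6, Fezf2 and its downstream partner Bcl11b (CTIP2) are known for subcortical projection neurons of layer 5, Rorb is a nuclear receptor of layer 4, and the homeodomain factors Cux1 and Cux2 mark the upper layers. Neurod6 is a basic helix-loop-helix factor of postmitotic pyramidal neurons. Bcl11b is also a well-known factor of striatal medium spiny neurons, and the Cux1 locus also produces CASP, a Golgi protein, from an alternative transcript that a count per gene does not separate from Cux1 itself.

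The 8 genes lay on 6 chromosomes of the NCBIM37 (mm9) assembly and all are annotated as protein coding. Tbr1 (ENSMUSG00000035033) lay on the plus strand at chr2:61640987-61652171, and Emx1 (ENSMUSG00000033726) on the plus strand at chr6:85137432-85154456. The other 6 were on the minus strand: Neurod6 (ENSMUSG00000037984) at chr6:55627812-55631257, Fezf2 (ENSMUSG00000021743) at chr14:13174406-13178379, Bcl11b (ENSMUSG00000048251) at chr12:109148613-109241812, Rorb (ENSMUSG00000036192) at chr19:19005095-19185686, Cux1 (ENSMUSG00000029705) at chr5:136724005-137043301 and Cux2 (ENSMUSG00000042589) at chr5:122308396-122500111. Exons of 6 of the 8 genes shared no base with another gene. Cux1 shared 5.2% of its exon bases with Gm16599 on the opposite strand, and Cux2 shared 5.2% with its own pseudogene entry on the same strand. Reads on those bases were left out as ambiguous, for Cux1 because reads had been counted without regard to strand.

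RefSeq lists 10 promoter windows for the 8 genes, each from 250 bases before to 50 bases after a transcription start site in the GRCm38.p6 assembly, a different build from that of the counts. The 5 shown here are those of Fezf2, the gene with the largest region difference, of Cux1, the only one of the 8 with a higher level in cerebellum, and of Tbr1, Neurod6 and Cux2, the only windows among the 10 that held 1 of the 5 motifs searched. Capitals mark these motifs on either strand, lower case all other bases, and each window is read along the strand of its gene.

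Fezf2, chr14:12345816-12346115, minus strand: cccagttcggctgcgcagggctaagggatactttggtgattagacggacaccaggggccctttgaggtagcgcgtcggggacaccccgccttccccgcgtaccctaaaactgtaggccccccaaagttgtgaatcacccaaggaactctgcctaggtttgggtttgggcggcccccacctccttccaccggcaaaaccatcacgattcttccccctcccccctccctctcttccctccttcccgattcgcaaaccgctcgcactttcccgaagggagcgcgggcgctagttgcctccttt
Cux1, chr5:136565932-136566231, minus strand: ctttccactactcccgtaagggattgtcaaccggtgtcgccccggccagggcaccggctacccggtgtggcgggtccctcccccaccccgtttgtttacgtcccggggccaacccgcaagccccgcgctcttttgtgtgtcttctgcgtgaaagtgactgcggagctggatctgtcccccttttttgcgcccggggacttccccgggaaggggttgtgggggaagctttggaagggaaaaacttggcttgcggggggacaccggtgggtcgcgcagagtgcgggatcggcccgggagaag
Tbr1, chr2:61804203-61804502, plus strand: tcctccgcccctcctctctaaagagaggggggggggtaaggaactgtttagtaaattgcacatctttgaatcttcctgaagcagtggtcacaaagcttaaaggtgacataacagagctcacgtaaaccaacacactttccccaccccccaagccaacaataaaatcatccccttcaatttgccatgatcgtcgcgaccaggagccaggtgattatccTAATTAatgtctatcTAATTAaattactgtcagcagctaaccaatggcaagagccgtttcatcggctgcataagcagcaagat
Neurod6, chr6:55681214-55681513, minus strand: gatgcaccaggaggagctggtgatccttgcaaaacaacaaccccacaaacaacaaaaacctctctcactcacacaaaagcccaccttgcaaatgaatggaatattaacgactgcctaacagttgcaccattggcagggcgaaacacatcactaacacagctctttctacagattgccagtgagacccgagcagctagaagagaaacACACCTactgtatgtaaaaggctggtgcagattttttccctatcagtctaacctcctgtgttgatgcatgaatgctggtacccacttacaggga
Cux2, the second of its 2 windows, chr5:122047776-122048075, minus strand: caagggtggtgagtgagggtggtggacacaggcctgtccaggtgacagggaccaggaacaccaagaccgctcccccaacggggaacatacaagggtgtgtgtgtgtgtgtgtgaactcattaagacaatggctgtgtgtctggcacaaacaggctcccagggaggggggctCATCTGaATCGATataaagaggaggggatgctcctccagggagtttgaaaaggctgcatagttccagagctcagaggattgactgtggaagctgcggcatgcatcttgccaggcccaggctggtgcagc

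The 5 motifs searched, each of 6 letters and on both strands, stood for NeuroD, T-box, homeodomain, ROR and Cux factors, and no pair of them overlapped in these windows. No motif was searched for the zinc finger factors Fezf2 and Bcl11b. The homeodomain core TAATTA, its own reverse complement, occurred in the Tbr1 window at positions -33 and -18 from the start site and is present in 5.29% of all 32851 windows of the genome. Neurod6 held the T-box core AGGTGT, as ACACCT on the printed strand, at position -44, against 13.7% of all windows. In the second Cux2 window the NeuroD E-box CAGATG, printed as CATCTG, lay at position -79 and the Cux site ATCGAT at position -72. These occur in 17.1% and 0.925% of all windows. The ROR core AGGTCA, present in 16.3% of all windows, was in none of the 10. GC content ran from 41.0% in the second Rorb window to 80.3% in the first Cux2 window, against a median of 52.7% over all windows. The ratio of observed to expected CpG ran from 0.176 in the second Cux2 window and 0.192 in Neurod6 to 0.903 in Emx1 and 1.01 in the first Cux2 window, with a median of 0.384 over all windows. A motif match is a description of letters and was not tested for binding.

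The 16 libraries held from 20813432 to 30497206 counts on genes. The labelled regions matched their markers: 4 markers of cortical excitatory neurons summed to 7914 to 8719 CPM (counts scaled to the library total) in cortex and 720.1 to 935 CPM in cerebellum, and 10 cerebellar markers summed to 31.9 to 67.3 CPM in cortex and 4244 to 4813 CPM in cerebellum. Some libraries stood apart from their group. CTX461 had 300.4 CPM of 9 summed striatal markers, against 757 or more in the other 7 cortex libraries. CBLM461 and CBLM479 had 95.9 and 85.2 CPM of Nrgn, a forebrain calmodulin-binding protein, against 4.63 to 7.41 CPM in the other 6 cerebellum libraries, and CBLM445 had 2065 CPM of Pvalb, a calcium-binding protein of inhibitory neurons, against 657 to 820.0 CPM. In addition, in 8 of the 16 columns of the deposited RPKM table the values were those of a library with another name in the count files, and in both regions the pairs CTX447 and CTX461, and CTX448 and CTX462, and their CBLM counterparts, changed places and so changed genotype. Libraries are named here by the count files, and wherever the other naming changed a direction it is given. Only the mice of CTX479, CTX480, CTX445 and CTX446 had the same name in both.

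The region comparison asked how far each factor is restricted to cortex. In wild-type mice 7 of the 8 genes were higher in cortex by both criteria used here, a 2-fold change or more and an adjusted p below 0.05 in the quasi-likelihood test of edgeR, and 0 of 8 were higher in cerebellum. Of all 16040 genes tested, 14.2% were higher in cortex and 10.5% higher in cerebellum by the same criteria, and these 8 genes had been chosen as cortical factors. Differences ran over a wide scale, from a Fezf2 level in cerebellum that was 0.149% of the cortex level to a Cux1 level that was 154% of it. The median log2 fold change of the 8 genes was 4.63, and that of all genes was -0.02. In bulk tissue, fewer cells that express a gene and less RNA per cell cannot be told apart.

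**Figure D1:**
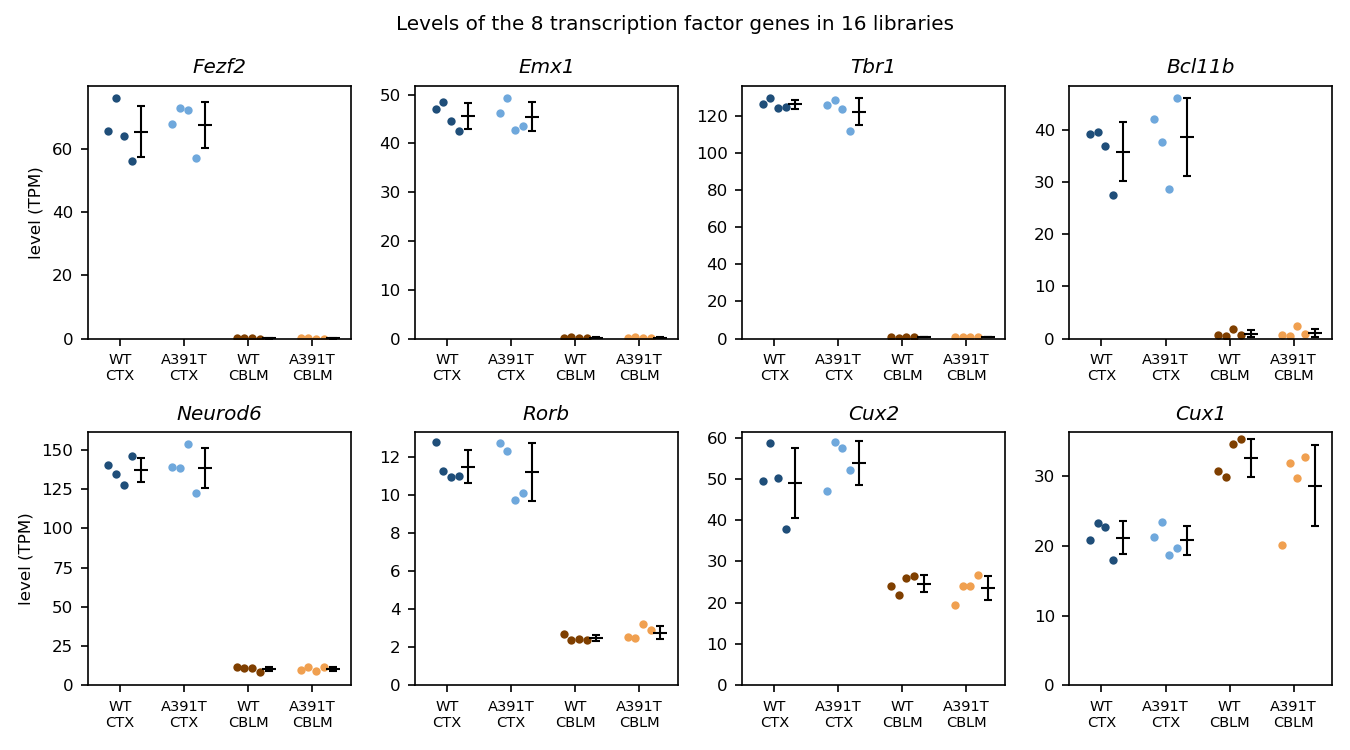
Level of each of the 8 genes in length-scaled counts with the same sum in every library (TPM, linear axes from 0) in the 16 libraries, with 1 point per library, 4 groups of 4 (WT, wild type. CTX, cortex. CBLM, cerebellum), and a black bar for the group mean ± SD. Fezf2, Emx1, Tbr1 and Bcl11b lay close to 0 in all 8 cerebellum libraries, Cux2 reached 26.7 TPM there, and Cux1 was the only gene with its higher levels in cerebellum.

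Fezf2, the zinc finger factor of layer 5, differed most. In wild-type cortex it reached 65.7, 76.2, 64.1 and 56.2 TPM in CTX447, CTX448, CTX479 and CTX480, a mean of 65.6 ± 8.19 TPM (SD, n = 4). Wild-type cerebellum held 1, 4, 1 and 0 Fezf2 counts in the same order of mice, 6 in all against 4108 in cortex. The ratio of cortex to cerebellum counts, scaled by library totals, was 679 with a 95% interval from 312 to 1852 that covers counting error only. The fitted log2 fold change was 9.40 (SE, standard error, of 0.25, adjusted p = 1.1e-10, edgeR), a value that rests on those 6 counts. In A391T mice the cortex libraries had 68.0, 73.0, 72.2 and 57.2 TPM in CTX445, CTX446, CTX461 and CTX462, and the cerebellum libraries held 3, 1, 0 and 0 counts, a ratio of 1025 with an interval from 400.2 to 3765. The intervals of the 2 genotypes overlapped. With the naming of the RPKM table the fitted value was 11.39 in wild-type and 9.00 in A391T mice, still called in both.

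Emx1 and Tbr1 followed the same arrangement with less spread between cortex libraries. Emx1, the pallial homeodomain factor, had 47.1, 48.5, 44.7 and 42.5 TPM in CTX447, CTX448, CTX479 and CTX480, and its cerebellum libraries held 2 to 4 counts each, 11 in all. Its fitted log2 fold change was 7.98 (SE 0.15, adjusted p = 1.3e-11, edgeR), and the ratio of counts was 243 with an interval from 136 to 488. Tbr1 reached 126, 129.7, 124 and 125 TPM in these cortex libraries, where the coefficient of variation was 1.91%, the lowest of the 8 genes. In wild-type cerebellum Tbr1 was at 0.894, 0.540, 0.690 and 0.693 TPM, from 20 to 32 counts a library. That placed every Tbr1 count in cerebellum above the 3 counts that a count of 0 allows, at 0.558% of the cortex mean and a log2 fold change of 7.63 (SE 0.10, adjusted p = 2.9e-12, edgeR). For Emx1, 7 of the 8 cerebellum libraries of both genotypes had 4 counts or fewer, so its level there was near what the depth could show.

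Neurod6 was the most abundant of the 8 genes in cortex but was not confined to it. Wild-type cortex had 141, 135, 128 and 146 TPM and wild-type cerebellum 11.6, 10.8, 11.0 and 8.53 TPM, from 116 to 163 counts a library. The cerebellum level was therefore 7.62% of that in cortex, with a log2 fold change of 3.86 (SE 0.10, adjusted p = 9.7e-11, edgeR). In A391T mice the share was 7.47%.

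Bcl11b had the largest coefficient of variation of the 8 over the 8 cortex libraries, 17.0%, and uneven levels in cerebellum. In wild-type cortex it reached 39.3, 39.6, 37.0 and 27.5 TPM, and in wild-type cerebellum 0.669, 0.560, 1.85 and 0.707 TPM in CBLM447, CBLM448, CBLM479 and CBLM480. The log2 fold change was 5.39 (SE 0.29, adjusted p = 2e-08, edgeR). In A391T mice cortex had 42.2, 37.7, 28.7 and 46.2 TPM in CTX445, CTX446, CTX461 and CTX462 and cerebellum 0.593, 0.552, 2.33 and 0.802 TPM in the libraries of the same 4 mice, with a log2 fold change of 5.31 (SE 0.40, adjusted p = 1.6e-06, edgeR). In each genotype 1 cerebellum library, CBLM479 or CBLM461, thus lay well above the other 3. With both left out, a comparison added after seeing the data, the differences were 5.96 in wild-type and 5.99 in A391T mice. The wild-type difference was 4.76 with the naming of the RPKM table, and the A391T one was 6.17 with only the mice named alike.

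Rorb and the 2 Cux genes had the smallest differences. Rorb, at 12.8, 11.3, 11.0 and 11.0 TPM in wild-type cortex and 2.70, 2.37, 2.40 and 2.36 TPM in wild-type cerebellum, was higher in cortex by a log2 fold change of 2.38 (SE 0.09, adjusted p = 1e-09, edgeR). Its cerebellum level was 21.4% of that in cortex. Cux2 had 49.6, 58.7, 50.3 and 37.9 TPM in cortex and 24.0, 22.0, 26.0 and 26.6 TPM in cerebellum, with a log2 fold change of 1.15 (SE 0.11, adjusted p = 3.4e-06, edgeR). This is close to the 2-fold criterion, and the Cux2 call was lost in a test against a 2-fold change and with only the mice of CTX479 and CTX480, where the difference was 0.91. All 4 Cux2 cortex values were nevertheless above all 4 cerebellum values.

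Cux1 went the other way. Its levels were 20.9, 23.3, 22.7 and 17.9 TPM in CTX447, CTX448, CTX479 and CTX480, and 30.8, 29.9, 34.6 and 35.5 TPM in the cerebellum of the same mice. The groups did not overlap, and the log2 fold change of cortex minus cerebellum was -0.47 (SE 0.08, adjusted p = 3.6e-04, edgeR), below the 2-fold criterion. In A391T mice cortex had 21.2, 23.5, 18.7 and 19.8 TPM and cerebellum 20.1, 31.9, 29.7 and 32.8 TPM in CBLM445, CBLM446, CBLM461 and CBLM462, and the groups overlapped because of CBLM445. The difference there was -0.35 (SE 0.12, adjusted p = 0.032, edgeR). Without CBLM445, the library with high Pvalb, it was -0.46 (SE 0.07, adjusted p = 8.8e-05), while leaving out 6 of the other 7 libraries of this comparison singly gave adjusted p-values from 0.06 to 0.093 and leaving out CTX446 gave 0.03. With the naming of the RPKM table it was -0.23 (SE 0.11, adjusted p = 0.087), and with only the mice of CTX445 and CTX446 it was -0.14 (SE 0.20, adjusted p = 0.60). The part of the Pvalb difference in the Cux1 value was not tested.

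**Figure D2:**
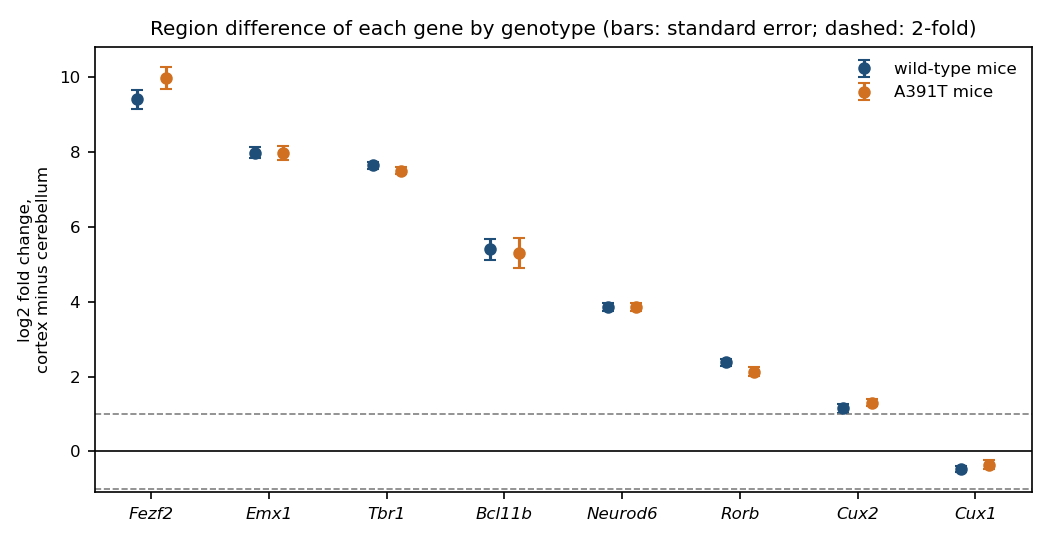
Log2 fold change of cortex minus cerebellum for each of the 8 genes in wild-type and A391T mice, from edgeR, with bars for 1 standard error and dashed lines at a 2-fold change. From Fezf2 at 9.40 and 9.97 to Cux2 at 1.15 and 1.30 the points lie above the upper dashed line, and Cux1 lies between 0 and the lower line in both genotypes.

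In A391T mice the count was again 7 of 8 higher in cortex and 0 higher in cerebellum, against 14.9% and 9.8% of all 16005 genes tested. The log2 fold changes not yet given were 9.97 for Fezf2, 7.97 for Emx1, 7.49 for Tbr1, 3.84 for Neurod6, 2.13 for Rorb and 1.30 for Cux2. Cortex values lay above all cerebellum values for 7 of the 8 genes in each genotype, as they did for 25.7% of all genes tested in wild-type and 25.5% in A391T mice. For each of these 7 genes the exact 2-sided permutation test of 4 against 4 libraries gave an unadjusted p = 0.0286 in both genotypes, the smallest it allows, and for Cux1, with cerebellum higher, it gave the same p in wild-type mice and p = 0.0857 in A391T mice. The permutation test took the 8 libraries of a genotype as independent, although each mouse gave a library of both regions. A sign-flip test within 4 mice allows no p below 0.125. P-values measure the spread between mice of a group.

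Relatives of the 8 genes fell on both sides of the region comparison. Of 10 relatives, 8 had enough counts to be tested in wild-type mice, 3 were called higher in cortex, 4 were called higher in cerebellum, and their median log2 fold change was -1.39. Emx2, the other Emx factor, had 16.4 ± 1.58 TPM in wild-type cortex (SD, n = 4), 0 to 6 counts in each wild-type cerebellum library, and a log2 fold change of 7.47. Bcl11a, the close homologue of Bcl11b, had a difference of 2.68, and Neurod4 one of 2.79 at 13 to 19 cortex counts a library. In contrast, the Tbr1 relative Eomes (Tbr2), known in the adult cerebellum for unipolar brush cells, was higher in cerebellum. Its wild-type cortex libraries held 2 to 50 counts, and its log2 fold change was -5.31 (SE 0.57), against -8.05 (SE 0.25) in A391T mice. The Neurod6 relative Neurod1, a granule cell factor, was also higher in cerebellum (-5.03), at 275 ± 3.93 TPM in wild-type cerebellum and 7.56 ± 0.801 TPM in cortex (SD, n = 4). The Rorb relative Rora, required by Purkinje cells, was higher in cerebellum too, at -2.04. Neurod2 passed the p-value criterion alone, at -0.74 and 130 ± 16.4 TPM in wild-type cortex (SD, n = 4). Fezf1 had 3 counts or fewer in every library and Tbx21 9 or fewer, and neither was tested.

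Among 23 other regulators of cortical excitatory neurons, 13 were called higher in cortex and 4 higher in cerebellum in wild-type mice, with a median log2 fold change of 1.04. Among the largest cortical differences was that of Lhx2, a LIM homeodomain factor, at 6.87. Pax6, also a granule cell factor, at -3.56, Etv1 at -2.47 and Zfpm2 at -1.94 were the largest in the other direction. Of 15 cortical layer genes that are not transcription factors, 10 were called higher in cortex, led by Crym at 9.51, the corticothalamic neurotensin receptor gene Ntsr1 at 5.83 and Rspo1 at 4.81. The 2 called higher in cerebellum were Nxph4 at -2.63 and Whrn at -1.71. In A391T mice the counts were 11 and 4 of 22 regulators, and 10 and 2 of 15 layer genes. These lists were drawn up with earlier results of the same data known, and their counts are descriptions.

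Levels were also ordered within cortex, where length-scaled values (TPM) of different genes can be compared. Over the 8 cortex libraries of both genotypes the order was Neurod6 at 138 ± 9.87 TPM, Tbr1 at 124 ± 5.39, Fezf2 at 66.6 ± 7.26, Cux2 at 51.5 ± 7.10, Emx1 at 45.6 ± 2.62, Bcl11b at 37.3 ± 6.33, Cux1 at 21.0 ± 2.09 and Rorb at 11.4 ± 1.16 TPM (SD, n = 8). Of the 15815 genes tested in cortex, 90.4% had a lower level than Neurod6 and 37.7% a lower level than Rorb. Within libraries the higher gene of each of the 7 neighbouring pairs was above the lower one in all 8 libraries for 5 pairs and in 7 of 8 for Cux2 over Emx1 and for Emx1 over Bcl11b. Exact 2-sided sign-flip tests on the log2 ratio gave adjusted p-values from 0.0109 to 0.0391 over the 7 pairs, and 0.00781 is the smallest unadjusted p. Because the order came from the same libraries, these p-values describe the spread within it and are no independent test of it. The step from Neurod6 to Tbr1, a mean log2 ratio of 0.15 (SD 0.09), was the smallest.

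Gene length decided part of that order. The deposited length of Cux1 was 13871 bases against 7630 exon bases in the NCBIM37 annotation used here, that of Bcl11b 10299 against 8111, and that of Cux2 9591 against 8009. With exon bases as the length, an alternative added after seeing the data, Cux1 rose from 21.0 to 38.2 TPM, Bcl11b stood at 47.4 TPM and Emx1 at 45.5 TPM. These last genes then changed places, with Bcl11b higher in 5 of 8 libraries and an adjusted p of 0.63 in the exact sign-flip test. Fezf2 over Cux2, at 66.5 and 61.7 TPM, was then higher in 7 of 8 libraries with an adjusted p of 0.0638. Without any division by length the order by CPM was another one, with Tbr1 highest, Cux2 and Bcl11b also above Neurod6, and Emx1 lowest. The order in cerebellum was different: Cux1 had 30.7 ± 4.75 TPM, Cux2 24.1 ± 2.45, Neurod6 10.4 ± 1.27, Rorb 2.61 ± 0.297, Bcl11b 1.01 ± 0.685, Tbr1 0.716 ± 0.11, Emx1 0.189 ± 0.0796 and Fezf2 0.0772 ± 0.0911 TPM (SD, n = 8). Without CBLM461 and CBLM479 Bcl11b had 0.647 ± 0.0975 TPM and lay below Tbr1 at 0.734 ± 0.122 TPM (SD, n = 6).

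The genotype comparison asked whether the A391T variant went with a change of these factors. In cortex 0 of the 8 genes were called, 0 had an unadjusted p under 0.05 in edgeR or in DESeq2, and the log2 fold changes of A391T minus wild type lay between -0.07 for Tbr1 (SE 0.05) and 0.12 for Cux2 (SE 0.11). Every adjusted p rounded to 1 in edgeR. Of all 15815 genes tested in cortex, 0.00632% were called, which is 1 gene, with 748 genes at an unadjusted p under 0.05 and 2 genes called by DESeq2. The ranges of the 2 genotypes overlapped for all 8 genes with this naming. Tbr1, with the lowest unadjusted p of the 8 (0.25), had 126, 128, 124 and 112 TPM in CTX445, CTX446, CTX461 and CTX462 against 124 to 129.7 TPM in wild type.

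These cortex values depended on the naming of the libraries. With the naming of the RPKM table the sign turned for Emx1, at 0.13 (SE 0.06), Tbr1, at 0.06 (SE 0.05), Cux1, at 0.16 (SE 0.07), and Rorb, at 0.22 (SE 0.07). Of the 8 genes 4 then had an unadjusted p under 0.05 in edgeR, Rorb at 0.012, Emx1 at 0.045, Cux1 at 0.046 and Fezf2 at 0.047, against 4.72% of all genes tested, and 0 were called, with adjusted p-values of 0.88 for these 4. The ranges in TPM then did not overlap for 3 of the 8 genes, as for 3.04% of all genes: Emx1 had 46.2 to 49.3 TPM in A391T and 42.5 to 44.7 TPM in wild-type cortex, Tbr1 125.8 to 129.7 against 112 to 125.1, and Rorb 11.25 to 12.77 against 9.75 to 11.02.

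In cerebellum 6 of the 8 genes had enough counts to be tested, and Emx1 and Fezf2 did not. Of these 6, 0 were called and 0 had an unadjusted p under 0.05 in edgeR or DESeq2, against 0% of 15668 genes called by edgeR, 1340 genes at an unadjusted p under 0.05 and 10 genes called by DESeq2. Rorb came nearest, with 2.52, 2.46, 3.19 and 2.89 TPM in A391T mice against 2.70, 2.37, 2.40 and 2.36 TPM in wild-type mice, a log2 fold change of 0.22 (SE 0.11, adjusted p = 0.53, edgeR). With the naming of the RPKM table it was -0.05. The Bcl11b difference was 0.21, smaller than its standard error of 0.52. Its sign depended on single libraries: it was -0.48 without CBLM461, 0.75 without CBLM479 and 0.07 without both. With the naming of the RPKM table, where CBLM461 counts as wild type, it was -1.20 (SE 0.37, adjusted p = 0.55). With that naming 2 of the 6 genes, Bcl11b and Cux2, had an unadjusted p under 0.05 (edgeR, 0.0092 and 0.049), against 7.82% of all genes, and their ranges in TPM did not overlap, as for 6.9% of all genes.

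**Figure D3:**
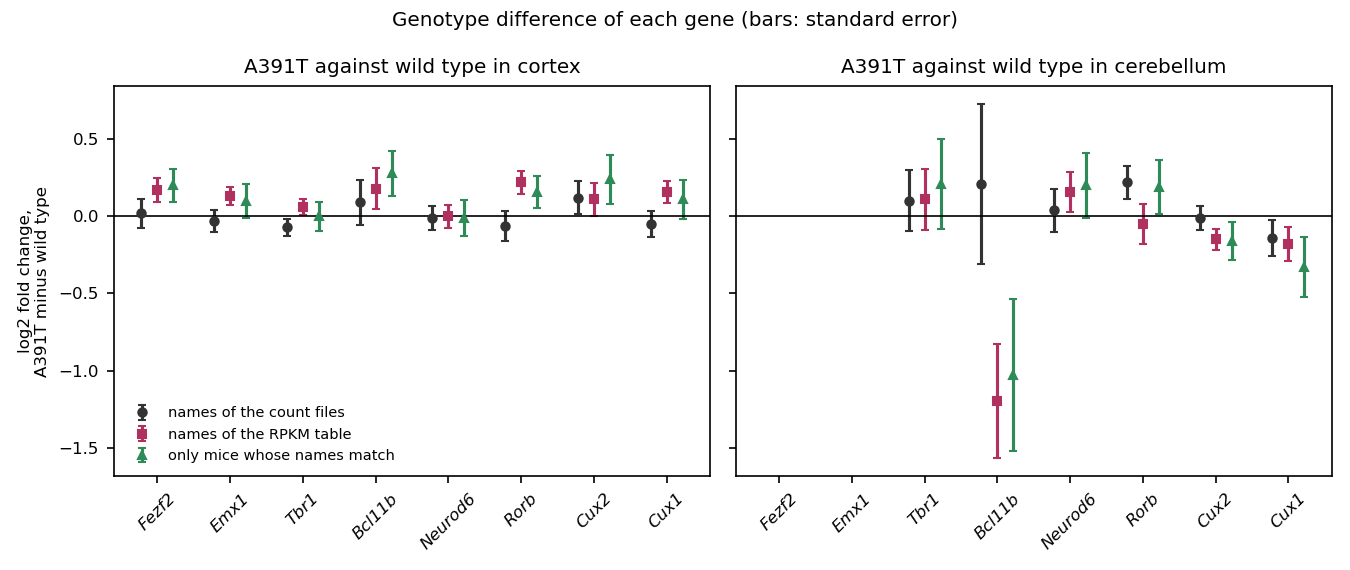
Log2 fold change of A391T minus wild type for the 8 genes in cortex and for the 6 tested in cerebellum, from edgeR, with bars for 1 standard error. Circles use the naming of the count files, squares that of the RPKM table and triangles only the 4 mice named alike in both. Differences in cortex stay within 0.28 of 0 under all 3, and Bcl11b in cerebellum moves from 0.21 to -1.20 and -1.03.

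Whether the region difference itself changed with genotype was tested as an interaction over all 16 libraries. Of the 8 genes, 0 had an adjusted p under 0.05 or an unadjusted p under 0.05 in edgeR or DESeq2, as was true of 0% of all 16589 genes after adjustment, with 805 genes at an unadjusted p under 0.05 and 1 gene called by DESeq2. The interaction, coded as the A391T difference of cortex minus cerebellum less the wild-type one, was -0.27 for Rorb (SE 0.15, adjusted p = 0.77) and -0.16 for Tbr1 (SE 0.16). The other 6 differences were smaller than their standard errors: 0.56 for Fezf2 (SE 0.92), 0.14 for Cux2 (SE 0.15), 0.11 for Cux1 (SE 0.15), -0.10 for Bcl11b (SE 0.52), -0.03 for Neurod6 (SE 0.15) and -0.03 for Emx1 (SE 0.42). Under the names of the RPKM table the sign turned for Fezf2, at -2.41 (SE 0.81), for Bcl11b, at 1.38 (SE 0.39), and for Rorb, at 0.28 (SE 0.14). CBLM461 and CBLM479, with 152 and 126 Bcl11b counts against 38 to 51 in the rest, are both wild type under these names. Of the 8 genes 3 then had an unadjusted p under 0.05 in edgeR, Bcl11b at 0.0025, Fezf2 at 0.014 and Cux1 at 0.021, against 9.51% of all genes, each with an adjusted p of 0.50. The Fezf2 value rests on few counts. With this naming CBLM461, CBLM462, CBLM479 and CBLM480 were wild type and held 0, 0, 1 and 0. CBLM445, CBLM446, CBLM447 and CBLM448 were A391T and held 3, 1, 1 and 4. Fezf2 and Emx1, too low to be tested in cerebellum alone, entered the interaction through their cortex counts.

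The cerebellum values of Bcl11b stood out together with those of other forebrain genes in 2 libraries. Bcl11b had 152 counts in CBLM461 and 126 in CBLM479, and 38 to 51 in the other 6. In CPM, 6.54 and 4.96 stood against 1.55 to 2.20. Of the 8 genes only Bcl11b was above the other 6 libraries in both, as were 4.36% of the 15668 genes tested in cerebellum. Its mean in these libraries was 5.54% of its mean in cortex. Emx2, with 7 and 6 counts against 0 or 1, and Lhx2, with 57 and 54 counts against 2 to 14, were also higher in both. So were Camk2a, the forebrain kinase, at 177 and 172 CPM against 91.2 to 130.1 CPM, and the dopamine receptor gene Drd2 at 7.10 and 7.08 CPM against 0.831 to 1.85 CPM. In contrast Tbr1, Neurod6, Emx1 and Fezf2 did not stand out in either library, with 22 and 25 Tbr1 counts against 20 to 32 in the other 6. Of the marker lists, 2 of 4 cortical excitatory, 3 of 9 striatal, 1 of 6 hippocampal, 2 of 4 interneuron, 1 of 10 cerebellar, 0 of 3 oligodendrocyte, 0 of 4 choroid plexus and 0 of 5 blood markers were above the other 6 in both. The libraries were picked out after their values were seen, no test was made, and which tissue the Bcl11b counts came from was not tested.

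**Figure D4:**
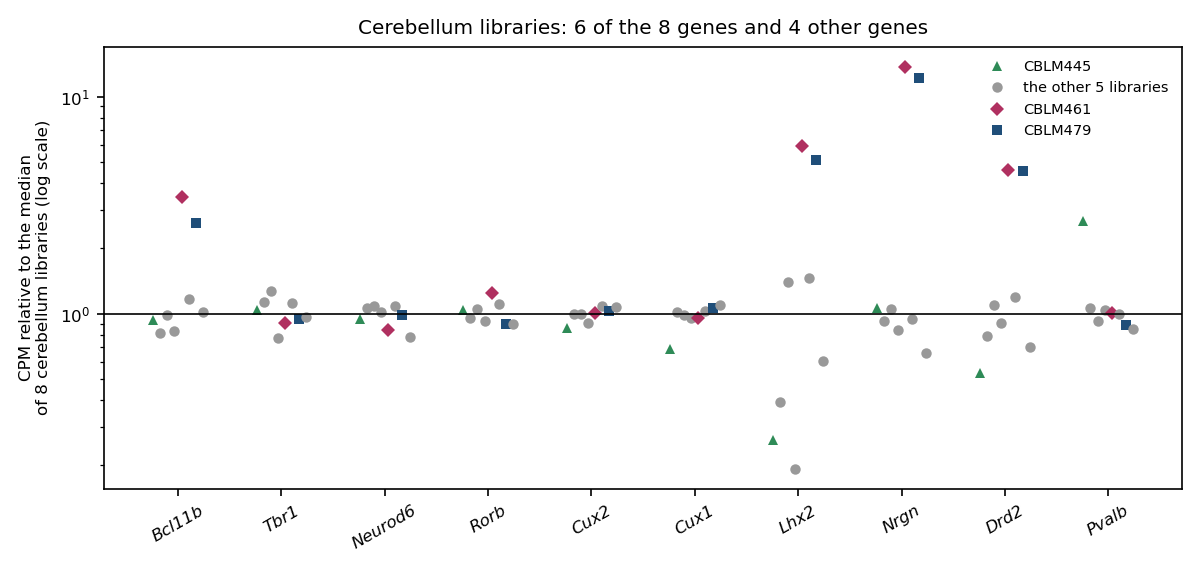
CPM of 6 of the 8 genes and of 4 other genes in each of the 8 cerebellum libraries, divided by the median of the 8 (logarithmic axis), with 3 libraries marked. CBLM461 and CBLM479 stand above the rest for Bcl11b, Lhx2, Nrgn and Drd2 and not for Tbr1 or Neurod6, and CBLM445 stands above the rest for Pvalb and below it for Cux1.

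In cortex the 8 genes were set beside the level of striatal markers, because striatum lies under the frontal cortex. After scaling by TMM factors, 9 striatal markers summed to 311.9 CPM in CTX461, 789 in CTX480, 792 in CTX446, 864 in CTX448, 991 in CTX447, 1014 in CTX479, 1092 in CTX445 and 1142 in CTX462. Bcl11b in the same libraries was at 82.3, 81.3, 108, 115, 117, 106, 122 and 135 CPM. The lowest values of Bcl11b were thus in CTX480 and CTX461 and the highest in CTX462, which also had the highest sum of striatal markers. Over the 8 libraries Pearson's r was 0.754 (exact permutation p = 0.00712, adjusted p = 0.0569 over the 8 genes) and Spearman's rho was 0.833 (exact permutation p = 0.0154, adjusted p = 0.123), and r was 0.644 without CTX461 and CTX462. Neurod6 ran in the other direction, with r of -0.679 (exact permutation p = 0.0360, adjusted p = 0.144), rho of -0.738 (exact permutation p = 0.0458, adjusted p = 0.183) and r of -0.372 without the same 2 libraries. The other 6 genes had r from -0.358 to 0.551. None of the 8 relations passed the adjustment. With the mean of each genotype subtracted, an alternative added after seeing the data, r was 0.841 for Bcl11b (exact permutation p = 0.0104 within genotypes, adjusted p = 0.0834) and -0.712 for Neurod6 (exact permutation p = 0.0747, adjusted p = 0.299). The part of striatal tissue in the Bcl11b level was not tested.

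**Figure D5:**
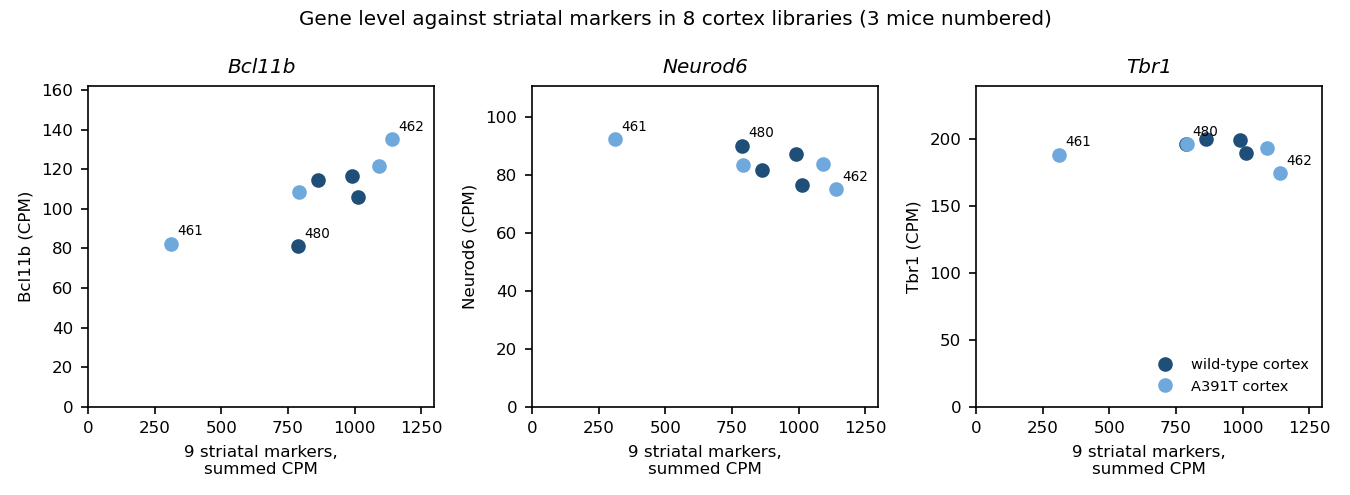
TMM-scaled CPM of Bcl11b, Neurod6 and Tbr1 (vertical axes from 0) against the summed CPM of 9 striatal markers in the 8 cortex libraries, with 1 point per library and CTX461, CTX462 and CTX480 numbered by mouse. Bcl11b is lowest in CTX480 and CTX461 and highest in CTX462, Neurod6 is highest in CTX461, and Tbr1 spans only 174 to 199.7 CPM.

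Relations of the 8 genes among themselves were computed over the 8 cortex libraries. Of 28 pairs, 21 had a positive r, the median r was 0.386, the values ran from -0.742 for Neurod6 with Bcl11b to 0.825 for Emx1 with Cux1, and 4 had an exact permutation p under 0.05. After adjustment over the 28 pairs 0 remained, and the lowest adjusted p was 0.25. Each r was also computed without the 2 libraries farthest from the median of the first gene. It was then -0.426 for Neurod6 with Bcl11b and 0.666 for Emx1 with Cux1. Some signs turned, that of Bcl11b with Cux1 from 0.578 to -0.868. Coefficients of variation over the 8 cortex libraries ran from 4.33% for Tbr1 and 5.74% for Emx1 to 13.8% for Cux2 and 17.0% for Bcl11b.

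For each gene the genes most like it over all 16 libraries were named by the smallest root mean square difference of centred log2 CPM profiles. For Bcl11b these were Kcnip2, a potassium channel interacting protein, at 0.25 and the cholecystokinin receptor gene Cckbr at 0.265, for Neurod6 Dact2 at 0.194 and Smoc2 at 0.215, and for Rorb Tmeff1 at 0.119 and Fscn1 at 0.121. The closest to Cux2 were Kif21b at 0.0816 and Slc8a2 at 0.0875, and to Cux1 the nuclear pore gene Tpr at 0.0658 and Zfp384 at 0.0713. For the most restricted genes the nearest profiles were less close. Tbr1 was closest to Sp8 at 0.301 and to the interneuron factor Dlx5 at 0.322, Emx1 to Dlx5 at 0.346 and to Tbr1 at 0.400, and Fezf2 to Ovol2 at 0.776 and Dlx6as1 at 0.905. Sp8 and Dlx5 had 0 counts in all 8 cerebellum libraries and Emx1 and Fezf2 0 to 5, so that these distances depend on the 0.5 counts added to each value and are no sign of a like profile. Emx1 with Tbr1 was the only pair of the 8 in which a nearest neighbour was itself one of them.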

How the data were processed

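RNA-seq of cortex and cerebellum from 8 mice was analysed as 16 libraries. Per the labels and the study's methods, libraries were directional and polyA-selected, and the authors aligned 50-base reads to mm9 by STAR and obtained a count per gene by HTSeq. The authors deposited these whole-number counts as raw values, 1 set per library, with file names that call the counting unstranded. A table of RPKM values with gene lengths was deposited too. From this table only names, lengths and the identity of columns were used, each column being matched to the counts of 1 library. Rows of the count files that name no gene were left out of library sizes. They held 10.2% to 13.2% of entries as reads without a gene, 2.20% to 2.75% as ambiguous and 8.41% to 12.1% as not uniquely aligned.

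Genes that passed filterByExpr were tested by quasi-likelihood in edgeR 4.0.16 (R 4.3.3, limma 3.58.1), with TMM factors and p-values adjusted by Benjamini-Hochberg over all of them. The fits compared regions within a genotype, genotypes within a region, and the interaction in all 16 libraries. TPM was computed from the counts and the deposited lengths, and CPM from the counts. Fits were tested on simulated counts. Permutation and sign-flip tests were exact and 2-sided, in Python 3.11.15 with numpy 2.4.6, pandas 2.3.3 and scipy 1.17.1. Depth was 20813432 to 30497206 counts on genes, and intervals of counts cover counting error only.

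Cortex and cerebellum libraries with 1 number came from the same mouse by their titles. The deviations of a mouse's libraries from their groups correlated over genes by -0.108 to 0.0866 (median -0.0441), against -0.126 to 0.121 between different mice. Between libraries of 1 group the chi-square was at least 2.97 per degree of freedom, above counting error.

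The 8 genes, the lists of relatives, regulators, layer genes and markers, and the tests were chosen with earlier results of these data known. Named were all 8 genes, their relatives, the 3 largest called differences per direction of the regulator and layer lists in wild-type mice, and the 2 genes most like each of the 8. Some genes that this rule names are not reported here. Lamp5 and, under its newer name, Drd1 matched no entry. Alternatives were mouse as a replicate block, DESeq2 1.42.0, library totals, RLE size factors, 2 low-count filters, 1 model for all libraries, the p-value alone, a test against a 2-fold change, the names of the RPKM table, only mice named alike, and each library left out. Without CBLM461 and CBLM479, with annotated exon bases as length, and with the striatal relations centred within genotype, were added after seeing the data.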

Additional observations from a re-analysis of the deposited data

Results flagged for a closer look

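Of 32 groups of 4 libraries, 1 per gene, region and genotype, 5 had a library whose gap to the next value took up more of the range of the group than Dixon's 95% limit for 4 samples, where chance gives about 1 in 20. Bcl11b was flagged in both genotypes of cerebellum, at 1.849 TPM in CBLM479 against 0.560 to 0.707 TPM in the other 3 wild-type libraries, and at 2.331 TPM in CBLM461 against 0.552 to 0.802 TPM in the other 3 A391T libraries. Rorb was flagged in both regions of 1 wild-type mouse, at 12.77 TPM in CTX447 against 11.0 to 11.3 TPM and at 2.698 TPM in CBLM447 against 2.36 to 2.40 TPM. Without CTX447 the wild-type region difference of Rorb was 2.32 and without CBLM447 it was 2.42, against 2.38 with both. In the RPKM table this mouse carries the name of an A391T mouse. Emx1 was at 0.3431 TPM in CBLM446 against 0.114 to 0.149 TPM in the other 3 A391T cerebellum libraries, which is 5 counts against 2 in each.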

How the results depend on the processing

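The count of genes called higher in cortex was 7 of 8 in both genotypes and 6 or 7 under all alternatives run. It was 6 in wild-type mice with only the mice of CTX479 and CTX480 or with a test against a 2-fold change, both through Cux2 (differences of 0.91 and 1.15). Where the p-value alone decided, Cux1 was also called, as higher in cerebellum. The genotype and interaction comparisons kept 0 of the 8 genes under every alternative. With the mouse as a replicate block, the paired fit called 7 and 7 genes in the region comparisons and 0 in the interaction, and changed no other call. Some signs turned, always without a call, and the cause was not tested. With the names of the RPKM table the cortex genotype difference became 0.13 for Emx1, 0.06 for Tbr1, 0.16 for Cux1 and 0.22 for Rorb, the cerebellum one -1.20 for Bcl11b and -0.05 for Rorb, and the interaction -2.41 for Fezf2, 1.38 for Bcl11b and 0.28 for Rorb (-2.41, 1.34 and 0.27 with the replicate block). With only mice named alike, these were 0.10 for Emx1, 0.11 for Cux1 and 0.16 for Rorb in cortex, -1.03 for Bcl11b in cerebellum, and -1.48 for Fezf2 and 1.34 for Bcl11b in the interaction. Leaving out 1 library at a time moved the Bcl11b cerebellum difference from -0.48 to 0.75, and the interactions of Emx1 from -0.24 to 0.41, of Bcl11b from -0.65 to 0.59 and of Fezf2 from -0.47 to 1.80. In the cortex order, which came from the same libraries, 7 of 7 neighbouring pairs had an adjusted p under 0.05, and 6 to 7 with 1 library left out. With CPM or with exon bases as length the order changed, and 5 of the 7 neighbouring pairs of each new order were under it. With the 4 wild-type libraries alone it was 0, because 4 libraries allow no p below 0.125. The number of genes related to striatal markers was 0, and 1 with library totals, where Bcl11b had r = 0.766. Leaving out 1 library gave 0 to 1, reached without CTX479 (Bcl11b, r = 0.773), and the 28 pairs also gave 0 to 1, reached without CTX479. Depth limited Fezf2 and Emx1 in cerebellum, where they held 0 to 5 counts a library.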

Other observations

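Eomes, a relative of Tbr1 that is called higher in cerebellum, had 50 counts in the cortex library CTX479 and from 1 to 11 in the other 7 cortex libraries, against 463 to 1233 in the 8 cerebellum libraries. Its interaction was -2.75 (standard error 1.02), with an unadjusted p of 0.015 and an adjusted p of 0.77 in edgeR.

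Ttr, the transthyretin gene and a choroid plexus marker, was at 9.27 CPM in CBLM462 and 8.46 CPM in CBLM479 and at 815 CPM or more in the other 6 cerebellum libraries, and none of the 8 transcription factor genes was separated in this way. Neurod1 was lowest among the cerebellum libraries in CBLM445, at 258 CPM against 335 to 411 CPM, the library in which Cux1 was also lowest and Pvalb highest.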
